A study of Homo sapiens with 4 samples.

Results

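The genes described here are 9 genes of MHC class I antigen presentation, namely HLA-B, HLA-C, B2M, TAP1, TAP2, TAPBP, PSMB8, PSMB9 and NLRC5. They were followed in 4 human lines of B-cell precursor acute lymphoblastic leukaemia, each hybridised to a single whole-transcript array. The chromosome translocation t(4;11), which rearranges the MLL gene (KMT2A), is present in RS4;11 and SEM, named the translocation lines below, and is lacking in NALM6 and REH. Per the labels all 4 lines were cultured alike, in RPMI medium with fetal bovine serum, and total RNA was taken. Each array reads a whole culture, so that fewer cells expressing a gene and less RNA per cell cannot be told apart. Members were taken as every probe set whose gene symbol field holds one of the 9 names, which gave 23 of the 32968 probe sets in the table, and 9 of the 20151 gene symbols named there. Every sample is an established line, and the replicate of a group is a line. Any SD below is thus the spread between 2 different leukaemias and includes culture and array. The SE given below also draws on the variances of all probe sets through the fit.

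MHC class I molecules carry short peptides from inside the cell to its surface, where CD8 T cells and natural killer cells read them. Proteasomes cut the peptides, the TAP transporter moves them into the endoplasmic reticulum, tapasin holds an empty class I molecule next to the transporter, and the loaded heavy chain travels to the surface with beta-2-microglobulin. In lymphoid cells the whole set is expressed at rest and is raised further by interferon, through IRF1 and related factors, and by NLRC5, which acts on the conserved promoter elements of the class I genes.

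The 23 probe sets are not 23 independent measurements. The 9 probe sets of TAP1, PSMB8 and PSMB9, at 3 for each gene, held identical values on all arrays within a gene, and 17 distinct profiles were left. TAP2 and TAPBP had 3 probe sets each with similar but not identical values, while B2M and NLRC5 had 1 each. No probe set was listed for HLA-B or HLA-C alone. A set of 3 carries the symbols HLA-C and HLA-B together, and another set of 3 carries HLA-F and HLA-B, so that 6 of the 23 probe sets have several symbols and no value below belongs to HLA-B or to HLA-C by itself. HLA-B and HLA-C are among the most polymorphic human genes. The alleles of the 4 lines and the match of the probes to them were not analysed here, so that allele and level cannot be told apart in these 6 probe sets.

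Promoter sequences of the members are shown first. Whether they bear on the levels described below was not tested. Promoter windows came from RefSeq (build GRCh38.p14, 250 bases before and 50 after the start) and were found for 8 of the 9 genes. Sequences of HLA-B, HLA-C, B2M, TAP1 and TAPBP are printed 5′ to 3′ along the gene, ending at the base before the start. Levels of B2M and TAP1 were ordered by group and those of TAPBP were not. HLA-B and HLA-C were read only in probe sets with several symbols, which were ordered by group. Capitals mark matches, on either strand, to the motifs named in the next paragraphs.
HLA-B, chr6:31357180-31357379, minus strand, and HLA-C, chr6:31272093-31272292, minus strand, are set one above the other.
HLA-B: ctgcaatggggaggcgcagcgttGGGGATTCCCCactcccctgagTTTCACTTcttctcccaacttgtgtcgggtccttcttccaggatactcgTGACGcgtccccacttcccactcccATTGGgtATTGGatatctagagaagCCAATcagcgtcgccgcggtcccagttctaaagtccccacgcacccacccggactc
HLA-C: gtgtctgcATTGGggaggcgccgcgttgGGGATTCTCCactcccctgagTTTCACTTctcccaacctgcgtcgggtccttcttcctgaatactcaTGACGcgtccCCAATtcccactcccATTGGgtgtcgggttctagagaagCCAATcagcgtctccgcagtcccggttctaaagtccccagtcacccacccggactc
B2M lies at chr15:44711317-44711516, plus strand, TAP1 at chr6:32853705-32853904, minus strand, and TAPBP at chr6:33314079-33314198, minus strand.
B2M: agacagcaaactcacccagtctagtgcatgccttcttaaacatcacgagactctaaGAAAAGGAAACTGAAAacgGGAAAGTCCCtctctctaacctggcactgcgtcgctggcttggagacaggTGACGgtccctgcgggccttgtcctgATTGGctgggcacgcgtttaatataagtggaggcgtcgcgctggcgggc
TAP1: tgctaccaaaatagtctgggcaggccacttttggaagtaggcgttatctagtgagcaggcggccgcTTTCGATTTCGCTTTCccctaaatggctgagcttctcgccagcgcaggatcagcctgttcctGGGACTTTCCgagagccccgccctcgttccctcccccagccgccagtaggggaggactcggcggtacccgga
TAPBP: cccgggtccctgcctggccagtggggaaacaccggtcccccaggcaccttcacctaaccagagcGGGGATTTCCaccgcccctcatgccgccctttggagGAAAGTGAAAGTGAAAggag

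In HLA-B, HLA-C and B2M the letters TGACG, the core of the X2 box, were followed 15 to 30 bases later by ATTGG, the letters of the Y box. That pair stands for the SXY module on which NLRC5 and the RFX proteins act. It was in 3 of the 8 member windows and in 0.575% of 34794 promoter windows of the same length. TGACG alone was in 6 of the 8 (24.5% of all windows) and ATTGG alone in 5 (34.6%), where those of TAP1 and PSMB9 are 1 site in the 13 bases that their windows share. The windows of HLA-B and HLA-C were 88.5% identical in alignment.

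The core AANNGAAA, bound by interferon regulatory factors, was in 6 of the 8 windows, against 22.9% of all windows, and was lacking in those of PSMB8 and PSMB9. The longer GAAANNGAAA, which overlaps it, was in the windows of B2M, TAP1, TAP2 and TAPBP (3.57% of all). The NF-kB consensus was in 5 windows, those of HLA-B, HLA-C, B2M, TAP1 and TAPBP (11.3% of all), and TTCNNNGAA, the letters of a GAS element, in 0 (7.67% of all). All motifs were searched on both strands of the 300 bases, and they were chosen with the sequences in view. TAP1 and PSMB9 are transcribed away from each other, and with this short overlap the PSMB9 window does not reach the interferon element printed for TAP1. A match is a string of letters and does not show a bound factor.

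Array values are log2 values as deposited. Differences are the mean of the translocation lines minus the mean of the other lines, tested with limma over all 32968 probe sets with Benjamini-Hochberg adjustment, and SE is the standard error of that fit. All 23 probe sets lay above the median of all values (6.44), between 7.65 and 13.14. On the log2 scale a difference of 1 is 2-fold. The arrays themselves were alike, with medians over all probe sets from 6.40 to 6.46.

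**Figure D1:**
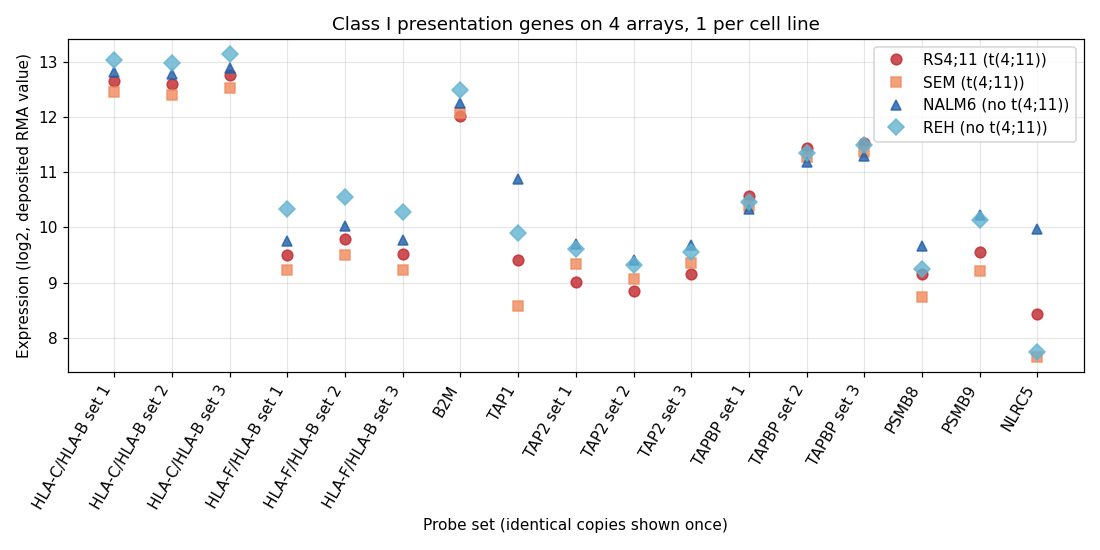
Expression on the log2 scale (y axis) of the 17 distinct member profiles (x axis) in each of the 4 lines, with 1 point per array. REH is highest in the HLA and B2M probe sets, NALM6 in TAP1, TAP2, PSMB8, PSMB9 and NLRC5, and the points of TAPBP nearly coincide.

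NLRC5, the transactivator of class I genes, varied more than any other member. It lay at 9.96 in NALM6, 8.43 in RS4;11, 7.75 in REH and 7.65 in SEM, a range of 2.31, or 4.96-fold. NALM6 stood alone at the top, REH and SEM were 0.10 apart at the bottom, and the groups overlapped because 1 line without the translocation lay high and the other low. The difference between groups was -0.81 (SE 0.89, limma adjusted p = 0.817). Without NALM6 it was 0.29, with the translocation lines then the higher ones, so that the sign rested on that line.

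The heavy chain probe sets shared by HLA-C and HLA-B were the brightest of the members. In the brightest of the 3, levels were 13.14 in REH, 12.89 in NALM6, 12.77 in RS4;11 and 12.52 in SEM. All 3 probe sets gave this order, and both translocation lines lay below both other lines, though RS4;11 and NALM6 were 0.12 apart and each group spanned 0.25. The difference was -0.37 (SE 0.16, limma adjusted p = 0.633), or 1.29-fold, and lay between -0.38 and -0.37 in the 3 probe sets. In the brightest it was -0.24 without REH and -0.25 without SEM.

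The probe sets shared by HLA-F, a non-classical heavy chain, and HLA-B had the same order with wider steps. The brightest lay at 10.56 in REH, 10.02 in NALM6, 9.79 in RS4;11 and 9.49 in SEM. The step from NALM6 to RS4;11 was 0.23, smaller than the 0.54 between NALM6 and REH or the 0.30 between RS4;11 and SEM. Over the 3 probe sets the difference between groups lay between -0.69 and -0.65, and the smallest limma adjusted p was 0.575. Without REH the 3 values lay between -0.40 and -0.38, and without NALM6 between -0.97 and -0.90.

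B2M, the invariant light chain of every class I molecule, lay at 12.49 in REH, 12.26 in NALM6, 12.07 in SEM and 12.01 in RS4;11. Like the heavy chain probe sets it was highest in REH and next in NALM6, and the translocation lines were 0.06 apart. The groups were at 12.04 ± 0.04 with the translocation and 12.37 ± 0.17 without it (SD, n = 2 lines each). The difference was -0.34 (SE 0.13, limma adjusted p = 0.593), with -0.22 without REH and -0.45 without NALM6.

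TAP1, one subunit of the peptide transporter, differed most between groups. It lay at 10.88 in NALM6, 9.89 in REH, 9.41 in RS4;11 and 8.58 in SEM. The groups did not overlap, but the gap between them, from REH to RS4;11, was 0.48, smaller than the 0.98 between NALM6 and REH and the 0.83 between RS4;11 and SEM. Mean levels were 8.998 ± 0.584 and 10.39 ± 0.70 (SD, n = 2 lines each), a 2.62-fold difference with SE 0.49 on the log2 scale and limma adjusted p = 0.565. Leaving out a line moved the log2 difference between -1.88 and -0.90. It was -0.98 without SEM, -0.90 without NALM6, -1.80 without RS4;11 and -1.88 without REH.

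TAP2, the partner subunit, spanned a narrower range. The brightest probe set lay at 9.68 in NALM6, 9.56 in REH, 9.36 in SEM and 9.16 in RS4;11. In TAP2, as in B2M, RS4;11 was the lowest line, whereas SEM was lowest in TAP1. In all 3 probe sets both translocation lines lay below both others, with differences from -0.47 to -0.36 and limma adjusted p from 0.527 to 0.565. The largest of these differences was -0.30 without RS4;11.

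TAPBP, which encodes tapasin, had no such order. Its brightest probe set lay at 11.53 in RS4;11, 11.48 in REH, 11.36 in SEM and 11.29 in NALM6, a range of 0.24. One line of each group was high and the other low. The difference was 0.06 (SE 0.13, limma adjusted p = 0.918) and lay between 0.06 and 0.09 in the 3 probe sets. Its sign turned when RS4;11 or NALM6 was left out in the brightest probe set (-0.02 and -0.04), and over all 3 it lay between 0.01 and 0.06 after the arrays were centred or quantile normalized again.

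PSMB8 and PSMB9 encode catalytic subunits that replace constitutive ones in the immunoproteasome. PSMB9 lay at 10.22 in NALM6, 10.13 in REH, 9.55 in RS4;11 and 9.21 in SEM. Here the gap between the groups, 0.58, was larger than the spread within either of them (0.09 and 0.34). Group levels were 9.38 ± 0.24 and 10.18 ± 0.06 (SD, n = 2 lines each), and the difference of -0.80 (SE 0.16, 1.74-fold) had the smallest limma adjusted p of the members, 0.411. PSMB8 lay at 9.66 in NALM6, 9.25 in REH, 9.15 in RS4;11 and 8.74 in SEM. Its groups were parted by 0.09 only, against 0.41 and 0.42 between the lines of a group, and the difference was -0.51 (SE 0.24, limma adjusted p = 0.655). It was -0.30 without SEM or without NALM6 and -0.71 without RS4;11 or without REH.

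**Figure D2:**
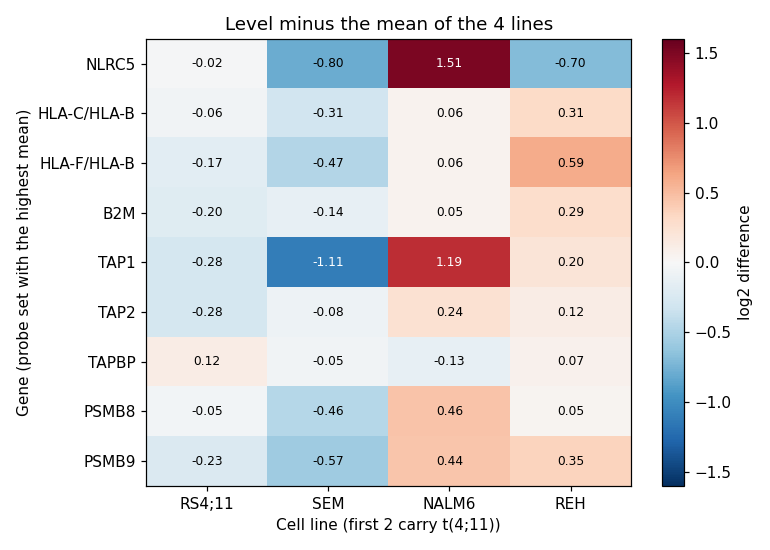
Level in each line minus the mean over the 4 lines, on the log2 scale (colour and printed value). Each row is the brightest probe set of a symbol field. NLRC5 and TAP1 carry the largest deviations, at 1.51 and 1.19 in NALM6, while the HLA and B2M rows peak in REH.

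The members therefore followed the lines in more than one way. The largest value lay in NALM6 for 7 of the 17 distinct profiles (NLRC5, TAP1, the 3 of TAP2, PSMB8 and PSMB9), in REH for 7 (the 6 HLA profiles and B2M) and in RS4;11 for 3 (TAPBP). NALM6 was the highest line in 24.6% of all probe sets, REH in 22.1% and RS4;11 in 31.4%. SEM was the lowest line in 10 of the 17, against 23.8% of all probe sets. The 17 profiles come from 9 genes, and probe sets of a gene share targets. The brightest probe set of each of the 9 symbol fields was then taken. These fields are not the 9 genes, since HLA-B is in both HLA-C/HLA-B and HLA-F/HLA-B. Over them, the median deviation from the mean of the other lines was -0.62 in SEM (9 of 9 below) and -0.23 in RS4;11 (8 of 9 below). It was 0.32 in NALM6 (8 of 9 above) and 0.27 in REH (8 of 9 above). The same median over all probe sets lay between -0.05 and 0.04 in the 4 lines.

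Likeness between members was measured as the root mean square difference of line-centred profiles over the 4 lines, in log2 units. This distance depends on the size of the changes as well as on the order of the lines. B2M and the HLA-C/HLA-B probe set were 0.11 apart, B2M and TAP2 0.14, and PSMB8 and PSMB9 0.19. TAPBP, with another line order, was 0.22 from the HLA-C/HLA-B probe set, against 0.25 for PSMB8 and 0.25 for PSMB9. The neighbouring transporter subunits TAP1 and TAP2 were 0.70 apart, as far as TAP1 was from the HLA-C/HLA-B probe set (0.70), and TAP1 and NLRC5 were 0.52 apart. The HLA-C/HLA-B probe set and B2M lay 0.92 and 0.95 from NLRC5, the largest value among the members being 0.99 (HLA-F/HLA-B and NLRC5). A range of at least 2-fold over the lines was seen in 6 of the 17 profiles, those of NLRC5, TAP1, PSMB9 and HLA-F/HLA-B. PSMB9 (2.01-fold) and the HLA-F/HLA-B profiles (2.08-fold to 2.16-fold) lay close to that limit. Of all probe sets 15.5% had such a range, and 25.5% once dim probe sets, with no value above the median of all values, were left out.

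Between the groups, 0 of the 23 probe sets passed limma at an adjusted p under 0.05, and 0.0364% of all probe sets did (12 of 32968, 6 higher and 6 lower in the translocation lines). At an unadjusted p under 0.05, 5 of the 23 lay lower (3 of 17 profiles, PSMB9 and both dimmer TAP2 probe sets), against 4.02% of all probe sets. By order alone, both translocation lines were below both others in 19 of the 23 probe sets, or 13 of the 17 profiles, against 17.4% of all probe sets and 20.4% without the dim ones. These are the profiles of HLA-C/HLA-B, HLA-F/HLA-B, B2M, TAP1, TAP2, PSMB8 and PSMB9. Members were chosen with earlier results of these data known, and probe sets of a gene share targets. The counts beside the shares of all probe sets are therefore a description only. The median difference was -0.51 over the 23 probe sets and -0.41 over the 17 profiles, with 0.03 over all probe sets. A difference of 2-fold or more was reached by TAP1 alone (2.52% of all probe sets lay that far lower). An exact two-sided permutation test of a single gene cannot give less than p = 0.333 with 2 lines against 2.

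**Figure D3:**
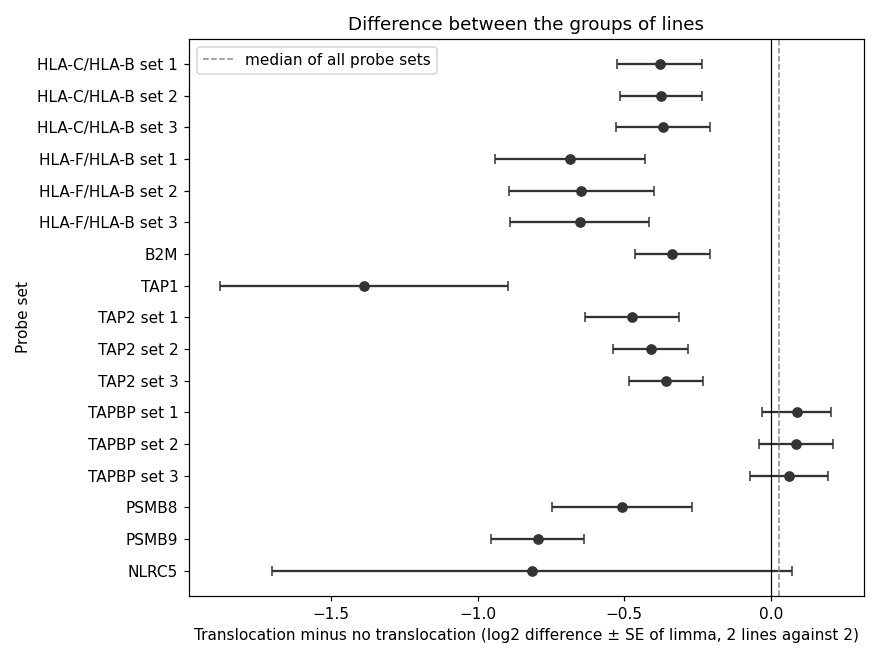
Log2 difference between the translocation lines and the other lines (x axis) with the SE of limma for the 17 distinct profiles (y axis), 2 lines against 2. All points except the 3 of TAPBP lie below 0, TAP1 farthest at -1.39, and the bar of NLRC5 spans 0.

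The immunoproteasome subunits were set beside the constitutive subunits they replace, within each array and relative to the mean of the 4 lines. The log2 ratio of PSMB9 to PSMB6 was 0.51 in REH, 0.48 in NALM6, -0.32 in RS4;11 and -0.67 in SEM. That of PSMB8 to PSMB5 was 0.52 in NALM6, 0.32 in REH, -0.36 in RS4;11 and -0.48 in SEM. Both ratios were lower in both translocation lines than in both others. The gaps between the groups were 0.80 and 0.69, where PSMB9 and PSMB8 alone had gaps of 0.58 and 0.09. The share of other gene pairs with that order was not counted, while 17.4% of single probe sets had it. The group means of the ratios differed by -0.99 and -0.84, since PSMB6 and PSMB5 had differences of the opposite sign (0.19 and 0.33) to those of PSMB9 and PSMB8. PSMB10, the immunoproteasome subunit encoded outside the MHC on another chromosome, did not share this. Its ratio to PSMB7 lay between -0.18 in REH and 0.10 in SEM, and PSMB10 itself was at 8.91 ± 0.08 with the translocation and 8.42 ± 0.26 without it (SD, n = 2 lines each; limma adjusted p = 0.561).

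In 8 lists of related genes, each gene taken by its brightest probe set with 1 symbol, 0 of 84 entries passed limma over all probe sets. Without adjustment 5 lay lower and 7 higher with p under 0.05, against 4.02% and 4.97% of all probe sets. The list of the constitutive proteasome held 15 measured genes, with the activator PSME3 among them. Only PSMB5, PSMB6 and PSMB7 of it are replaced in the immunoproteasome, and its other subunits belong to both forms. Of the 15, 13 lay higher in the translocation lines and 2 lower, with a median of 0.19 (0.03 over all probe sets). The share of all probe sets lying higher was not counted. Without adjustment 4 of the higher genes and 1 of the lower ones had p under 0.05 (4.97% of all probe sets lay higher and 4.02% lower by that rule). The subunit genes PSMA2, PSMA6 and PSMA7 had the largest differences, at -0.56 (SE 0.12), -0.48 (SE 0.23) and 0.46 (SE 0.13).

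Among 9 genes of peptide supply and trimming the median was -0.23, with 5 lower and 4 higher. ERAP2, an endoplasmic reticulum aminopeptidase that trims peptides, was at 10.38 in NALM6, 10.05 in REH, 9.39 in SEM and 8.49 in RS4;11, a difference of -1.27 (SE 0.37, limma adjusted p = 0.517). Its order over the lines was that of TAP2. The share of all probe sets with a given line order was not counted, here or for the orders matched below. The difference of NPEPPS, a cytosolic aminopeptidase, was -0.30 (SE 0.11). The list of loading complex chaperones had a median of 0.16 over 6 measured genes, with 5 higher and 1 lower. It also holds GANAB and UGGT1, which encode enzymes acting on glycans. HSPA5, CALR and GANAB had the largest differences, at 0.48 (SE 0.33), 0.36 (SE 0.17) and 0.23 (SE 0.09). HSPA5, a general chaperone of the endoplasmic reticulum, reached 10.18 in REH, against 11.02 to 11.12 elsewhere, with NALM6 close to the translocation lines.

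Of the other genes with a class I fold, 4 of 8 had a probe set with 1 symbol. FCGRT, the heavy chain of the neonatal Fc receptor, which also pairs with beta-2-microglobulin, was at 8.56 in RS4;11, 8.12 in SEM, 7.41 in REH and 6.93 in NALM6. Here both translocation lines lay above both others, unlike in the HLA probe sets, with a difference of 1.17 (SE 0.26, limma adjusted p = 0.436). How many of all probe sets had both translocation lines above both others was not counted. HFE and CD1D differed by -0.14 (SE 0.29) and 0.09 (SE 0.10). The ligands of natural killer receptors with this fold had a median of -0.02 over 8 genes, with 4 lower and 4 higher. ULBP3 lay at 8.86 in NALM6 and 5.70 in RS4;11, with SEM (7.57) and REH (7.43) between them. The differences were -1.51 (SE 0.89) for ULBP3, -0.40 (SE 0.21) for ULBP2 and 0.32 (SE 0.14) for MICB.

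The regulators of class I genes had a median of -0.03 over 17 measured of 20 listed genes, with 10 lower and 7 higher. IRF1, which drives these genes after interferon, lay at 9.91 in REH, 9.45 in NALM6, 9.33 in RS4;11 and 9.03 in SEM. This is the line order of the HLA probe sets, and how many of all probe sets had it was not counted. The difference of IRF1 was -0.50 (SE 0.22, limma adjusted p = 0.641). IRF8, a lymphoid and myeloid factor, ran from 10.09 in SEM through 8.67 in REH and 8.47 in RS4;11 to 5.75 in NALM6, so that its highest line was the lowest for TAP1 and NLRC5 and its lowest line their highest. Its difference was 2.07 (SE 1.26). That of NFYB, a subunit of the factor that binds the Y box, was 0.34 (SE 0.15). CIITA, the class II counterpart of NLRC5, lay between 8.10 in SEM and 8.60 in NALM6.

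The list of interferon receptors and kinases had a median of -0.09 over 10 genes, with 6 lower and 4 higher. It also holds PTPN2, SOCS1 and SOCS3, which restrain interferon signalling. Of these, SOCS1 and SOCS3 lay below the median of all values in every line. IFNGR1, the ligand-binding chain of the interferon gamma receptor, was at 8.61 ± 0.04 with the translocation and 9.38 ± 0.22 without it (SD, n = 2 lines each), a difference of -0.77 (SE 0.15, limma adjusted p = 0.394). JAK2, a kinase bound to that receptor, lay at 8.58 in REH, 8.29 in NALM6, 7.93 in RS4;11 and 7.20 in SEM (-0.87, SE 0.31). This is again the order of the HLA probe sets, not counted over all probe sets, and a link was not tested. IFNGR2, the second chain, lay at 7.34 in NALM6 and between 8.38 and 8.67 in the other lines (0.47, SE 0.51).

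**Figure D4:**
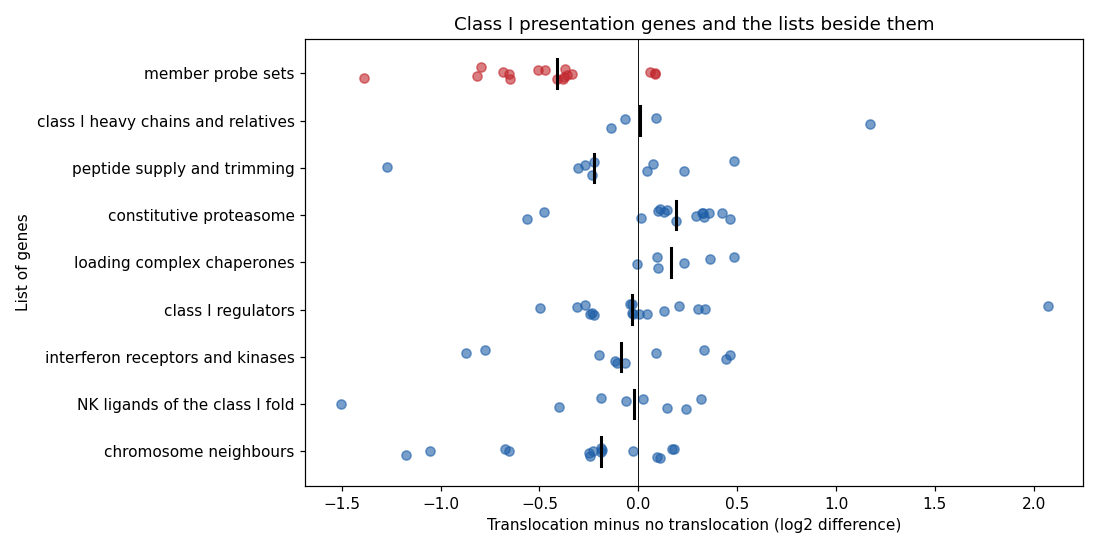
Log2 difference between the groups (x axis) of each gene in the lists named on the y axis, with the 17 distinct member profiles on top and a black bar at each median (-0.41 for the members, 0.19 for the constitutive proteasome). Most members lie below 0 and most genes listed for the constitutive proteasome above it. Most subunits of that list also belong to the immunoproteasome.

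TAP2, PSMB8, TAP1 and PSMB9 lie together in the class II region of the MHC on chromosome 6, between HLA-DOB and the HLA-DM genes. Along this stretch the differences were -1.18 for HLA-DOB, -0.36 for TAP2, -0.51 for PSMB8, -1.39 for TAP1, -0.80 for PSMB9 and -0.65 for HLA-DMB, and in each of them both translocation lines lay below both others, an order that 17.4% of all probe sets had. The groups overlapped at the next genes, HLA-DMA (-0.19) and BRD2 (0.11). HLA-DOB lay at 7.59 in REH, 7.29 in NALM6, 6.85 in SEM and 5.67 in RS4;11 (SE of the difference 0.47). Its value in RS4;11 was below the median of all values (6.44). HLA-DMB, a chain of the class II peptide editor, had the line order of TAP1, with 10.20 in NALM6, 9.87 in REH, 9.63 in RS4;11 and 9.14 in SEM. Of the 15 measured genes listed as neighbours of the members, 11 lay lower and 4 higher, with a median of -0.19, and HLA-DOB, CPNE2 and HLA-DOA had the largest differences. CPNE2, a copine gene next to NLRC5, lay at 11.28 in NALM6, 11.26 in REH, 10.53 in RS4;11 and 9.90 in SEM (-1.05, SE 0.25, limma adjusted p = 0.459), which parted the groups where NLRC5 did not. HLA-DOA differed by -0.68 (SE 0.13). It lay at 9.64 in REH, 9.49 in NALM6, 8.99 in RS4;11 and 8.79 in SEM, so that its groups did not overlap.

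Genes with the most similar line profile were sought among 18376 other genes for the 3 members with a single symbol and a range of at least 2-fold. Nearest to TAP1 were MX1 and SNORA5A, at root mean square differences of 0.14 and 0.16 over the 4 lines. MX1, an interferon-induced GTPase, lay at 7.59 in NALM6, 6.69 in REH, 5.88 in RS4;11 and 5.40 in SEM. Nearest to PSMB9 were FCHSD2 (0.01) and SNORD13P2 (0.04). Nearest to NLRC5 were PTCRA (0.15) and ESAM (0.17). With 4 lines and so many genes, close profiles are plentiful and these are a description only.

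The lines carried the markers of their type unevenly. The median of 9 measured precursor B genes was 7.63 in SEM, 10.78 in RS4;11, 11.44 in NALM6 and 11.61 in REH. This order of medians is also the order of the HLA probe sets, and its part in the results was not tested. Single genes of the list had it in 4 of 9 cases (CD79B, CD22, RAG1 and DNTT). Others did not: PAX5, the B-lineage factor, lay at 11.90 in SEM, 11.85 in NALM6, 11.73 in RS4;11 and 11.61 in REH, and VPREB1, a surrogate light chain gene, at 11.35 in RS4;11, 10.86 in NALM6, 7.57 in SEM and 5.51 in REH.

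Lists of other cell types had low medians in every line, from 4.83 to 4.96 for T cells, 5.06 to 5.18 for erythroid, 5.10 to 5.20 for stromal, 4.88 to 5.66 for myeloid, 4.57 to 5.22 for NK and 5.07 to 6.18 for plasmacytoid dendritic cells. Some of their genes lay above the median of all values in 1 or more lines. NKG7 was at 10.99 in RS4;11, 9.13 in SEM and 7.11 in REH, and KLRF1 at 6.67 in RS4;11. The lysozyme gene LYZ was at 9.65 in NALM6, 8.50 in SEM and 8.27 in RS4;11. CSF1R was at 7.69 in SEM, IL3RA at 7.46 in SEM and 7.15 in NALM6, MPO at 7.57 in REH and CD4 at 7.18 in NALM6. Their part in the results was not tested.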

How the data were processed

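Log2 expression values per probe set were used as deposited by the authors. RMA and Partek are named in the submitters' processing notes, with versions and roles not given in the sources used here. A log2 scale was inferred from the values (3.44 to 14.27). RMA gives no detection call, and 1 array per line limits the precision. Probe sets were named through the platform annotation (19310 with 1 symbol, 1752 with several, 11906 with none listed). Promoters were matched by symbol at the RefSeq gene start (GRCh38.p14).

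All 32968 probe sets were fitted with limma 3.58.1 (lmFit, eBayes) in R 4.3.3 without covariates, 2 lines against 2, with Benjamini-Hochberg adjustment over all of them. P-values are two-sided. Residual degrees of freedom were 2 and prior ones 1.54. It was tested on simulated data. Dim probe sets are those whose highest value is below the median of all values. Up to 3 genes per list with the largest differences, the subunit pairs and the 2 nearest profiles per member were named by rule. HLA-DMB, HLA-DMA, BRD2, CIITA and the single markers were added after their values were seen. Members and lists were chosen with earlier results of these data known. Heavy chain genes without a probe set named here were not analysed here. Tables used Python 3.11.15, pandas 2.3.3, numpy 2.4.6, biopython 1.88 and matplotlib 3.10.9.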

Additional observations from a re-analysis of the deposited data

How the results depend on the processing

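No alternative brought a member past limma's threshold. These were repeated quantile normalization, centred arrays, fits on named probe sets, on 1 probe set a gene or without dim probe sets, an intensity trend, robust eBayes, no moderation, a threshold of 0.1, leaving out each line and, chosen after seeing the data, 1 row for probe sets with identical values. The count of member probe sets called was 0 throughout, also over the fits that leave out a line (0 to 0), where the smallest adjusted p of a member lay between 0.312 (without NALM6) and 0.684 (without SEM). Each fit that leaves out a line called 0 of all 32968 probe sets, and that without moderation called 1, so that these fits could hardly call a member. The median difference over the member probe sets was -0.71 without RS4;11 and lay between -0.71 and -0.46 over the lines left out. In the scalings it was -0.52 (repeated quantile normalization) and -0.56 (centred arrays). Signs turned for NLRC5 without NALM6 (0.29, with -1.92 without REH at the other end) and for TAPBP without RS4;11 (-0.0239 in 1 probe set) or without NALM6 (-0.0357 and -0.0009 in 2 probe sets, which reached 0.158 and 0.171 without REH). The probe sets with a 2-fold range numbered 7 of 23 after repeated quantile normalization instead of 10. No paired analysis was possible because the replicate numbers only name the lines. RMA gives no signal over background, so that compression at low levels is unknown.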
